A study of Homo sapiens with 6 samples.

Results

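Transcript counts of 6 genes were followed through S and G2 phase in RPE-1 cells: the CDK1-inhibiting kinases WEE1 and PKMYT1, the CDK1-activating phosphatases CDC25A, CDC25B and CDC25C, and FAM53C, the gene that overlaps CDC25C on the other strand. They were chosen by name and identifier from the 60252 rows of a gene count table, and all 6 had a row and passed the filter on low counts that left 13510 features to test. RPE-1 is an hTERT-immortalised human retinal pigment epithelial cell line. The ATR-inhibited groups had been arrested with thymidine (2 mM, 24 h), released by 3 washes and given 2 µM AZ20, an inhibitor of the kinase ATR, from 1 h after the wash, for 3 h (harvest at 4 h of release, 3 libraries) or 5 h (harvest at 6 h, 2 libraries). The DMSO groups were blocked and released in the same way and given the solvent only (3 libraries at each time). Arrested cells were kept in thymidine without release (3 libraries), and cycling cells were never synchronised (3 libraries). The series describes 4 h as late S phase and 6 h as G2 phase, and 3 independent experiments, written here as A, B and C after the letters of the columns; the ATR-inhibited library of experiment C at 6 h was not analysed here.

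CDK1 with cyclin B drives entry into mitosis. WEE1, in the nucleus, and PKMYT1 (Myt1), at the membranes of the endoplasmic reticulum and Golgi, hold CDK1 inactive by phosphorylating a tyrosine and a threonine in its ATP-binding loop, and the CDC25 phosphatases remove these phosphates. ATR and its target CHEK1 restrain this switch during S phase by promoting CDC25 degradation or sequestration and by sustaining WEE1 activity, and much of this control acts on the proteins rather than on the transcripts that were counted here.

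The site on which all 5 enzymes act is shown first, since it defines the group. It is the coding sequence of CDK1 codons 10 to 20 (GENCODE v29 on GRCh38, plus strand, chr10:60780193-60784727, in exons 2 and 3 with the intron left out), with the codons of threonine 14 and tyrosine 15 in capitals.
CDK1: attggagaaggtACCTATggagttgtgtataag

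The coding stretch around the catalytic cysteine shows how closely the 3 phosphatases are related. The cysteine codon is in capitals: codon 431 of CDC25A (chr3:48164318-48164341, minus strand, exon 13), codon 487 of CDC25B (chr20:3803503-3803526, plus strand, exon 14) and codon 377 of CDC25C (chr5:138286508-138286531, minus strand, exon 12). Of the 24 bases, CDC25B and CDC25C share 20, and CDC25A shares 18 with each of them.
CDC25A: cacTGCgagttttcttctgagaga
CDC25B: cacTGTgaattctcatctgagcgt
CDC25C: cacTGTgaattctcctcagagagg

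The 250 bases before a start site are given for the phosphatases because CDC25B passed a test between phases in these data, as described with its values. They are RefSeq windows on GRCh38.p14: chr3:48188418-48188667 (minus strand) for CDC25A, chr20:3796060-3796309 (plus strand) for CDC25B and chr5:138331805-138332054 (minus strand) for CDC25C. Capitals mark the letters CCAAT or their reverse complement ATTGG, the cell cycle homology region letters TTTGAA or TTCGAA, and the E2F letters TTTGGCGC or TTTCGCGC, all searched on both strands with no overlap among the matches shown.
CDC25A promoter: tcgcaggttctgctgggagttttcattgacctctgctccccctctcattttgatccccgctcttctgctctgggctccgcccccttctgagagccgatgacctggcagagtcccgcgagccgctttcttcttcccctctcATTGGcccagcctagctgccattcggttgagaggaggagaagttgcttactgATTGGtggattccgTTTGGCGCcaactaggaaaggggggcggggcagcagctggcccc
CDC25B promoter: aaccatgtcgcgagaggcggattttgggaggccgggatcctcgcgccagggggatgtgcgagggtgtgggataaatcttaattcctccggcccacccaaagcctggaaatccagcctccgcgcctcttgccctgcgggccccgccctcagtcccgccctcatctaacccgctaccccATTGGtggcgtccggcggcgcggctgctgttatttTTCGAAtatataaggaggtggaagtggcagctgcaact
CDC25C promoter: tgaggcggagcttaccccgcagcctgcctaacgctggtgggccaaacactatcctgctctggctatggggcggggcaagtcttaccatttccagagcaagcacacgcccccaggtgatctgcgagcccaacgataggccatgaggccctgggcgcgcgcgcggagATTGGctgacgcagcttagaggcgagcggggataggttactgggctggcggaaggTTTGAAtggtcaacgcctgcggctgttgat

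CDC25B and CDC25C each held a CCAAT box and a cell cycle homology match in that window, at bases -73 to -69 and -38 to -33 before the start in CDC25B and at -85 to -81 and -30 to -25 in CDC25C. CDC25A held CCAAT letters at -110 and -58 and the E2F letters at -44 to -37. The other 3 windows of each of these genes held no cell cycle homology match, and 1 of the 3 held CCAAT letters in each. Among 35116 windows of the same length, 32% held CCAAT, 14.3% the cell cycle homology letters, 5.05% both, and 0.968% the E2F letters, and a match in letters describes the window and does not show a bound factor. CDC25B and CDC25C have 4 windows each, and the window shown is the only 1 with both a CCAAT box and a cell cycle homology match. The shares are per window, so they do not give how often a gene with 4 windows would hold such a window. CDC25A and FAM53C have 1 window each, and the FAM53C window held none of the 3 motifs. WEE1 and PKMYT1 are named only.

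The 17 libraries held 1758747 to 2357561 counts each, so CDC25A rested on 0 to 13 counts a library and FAM53C on 11 to 27. Levels below are CPM, the count scaled to a common library size by edgeR. Counts of libraries A and C of a group differed by a chi-square of 3.67 to 5.19 per degree of freedom and pairs with a library of experiment B by 8.27 to 20.9, so experiment B stood apart in every group of 3. The kit was strand-specific per the labels, yet VIM, a major mRNA of cultured cells, had 1105 ± 111 CPM against 31800 ± 4759 CPM for VIM-AS1 on the other strand, and FTH1 had 132 ± 21.7 CPM against 12830 ± 1732 CPM for BEST1 (SD, n = 17 each). Reads of a transcript therefore lay mostly on rows of features annotated opposite to it, and a row can hold reads of its opposite partner. WEE1, CDC25A and CDC25B have no annotated exon opposite theirs. By the same pattern most of their reads may lie on no row, so their rows may hold only a small part of them. PKMYT1, CDC25C and FAM53C have opposite exons, and their values are given with those of their partners. The line genes KRT8, KRT18, VIM and CDH2 were counted in every library, but all 4 have annotated exons opposite theirs. Of the 8 pigment epithelium genes, BEST1 and PMEL, which were high, lie opposite FTH1 and CDK2. The other 6 have no exon opposite theirs, and MITF had 1.49 to 8.39 CPM, OTX2 0 to 4.98 CPM and TYR 0 to 2.49 CPM, while RPE65, RLBP1 and TTR had at most 1.62 CPM in any library. Of the 7 markers of other cell types in the table, CD3E was at 0 in all libraries, and PTPRC, VWF and ALB had 12, 3 and 1 counts in all. SNAP25 had 50 counts in all, GFAP 106 and ACTA2 874 (11.5 to 44.2 CPM), where GFAP and ACTA2 have exons opposite theirs. Whether the strand of the counting lowers the counts of genes without opposite exons was not tested. Low counts of these markers therefore do not show that a gene is absent.

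WEE1 was higher with ATR inhibition in late S phase. With the experiment as a block CDC25B was called there too, and without experiment B PKMYT1 was, as given with their values. At 4 h it had 54, 51 and 53 counts (24.6, 23.3 and 25.2 CPM) in the ATR-inhibited libraries of experiments A, B and C, against 20, 14 and 19 counts (9.98, 6.94 and 9.35 CPM) in the DMSO libraries. The groups did not overlap, and the inhibited library was the higher in all 3 experiments. How many of all tested features had groups without overlap was not counted. With so few libraries a group, lack of overlap is therefore only a description, here and for the other genes below. The log2 fold change was 1.47 ± 0.27 (SE), with an adjusted p of 0.00813 by edgeR's quasi-likelihood test, and the difference within experiments A, B and C was 1.28, 1.71 and 1.40. Without the DMSO library of experiment B the adjusted p was 0.0901 and without that of experiment C 0.0586, and over 25 alternatives it ran from 2.06e-04, with the experiment as a block, to 0.0901.

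At 6 h the WEE1 difference was smaller. The inhibited libraries A and B had 36 and 42 counts (20.2 and 22.6 CPM), against 37, 26 and 34 counts (17.2, 13.1 and 18.6 CPM) in the DMSO libraries A, B and C. The groups did not overlap in CPM, but the log2 fold change of 0.39 ± 0.29 did not pass (edgeR adjusted p = 0.9999, unadjusted p = 0.185). The response at 6 h minus that at 4 h was -1.08 ± 0.40 on the log2 scale, with an unadjusted p of 0.0117 and an adjusted p of 0.9999 in edgeR, so a difference between the times was not established.

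Without the inhibitor, WEE1 was low in arrest and at 4 h and higher at 6 h. Arrested cells had 16, 12 and 18 counts (9.49, 5.97 and 9.15 CPM), and cycling cells had 31, 24 and 26 counts (13.7, 12.0 and 12.6 CPM). All 3 DMSO libraries at 6 h lay above all arrested and all 4 h DMSO libraries. The log2 fold change of 6 h DMSO over arrest was 0.99 ± 0.29, with an edgeR adjusted p of 0.0643 without and 0.0274 with the experiment as a block (0.0274 to 0.245 over the alternatives), and it was positive within each experiment, between 0.84 and 1.10. For 6 h over 4 h DMSO cells it was 0.89 ± 0.28 (adjusted p = 0.504 in edgeR). By mean CPM the order was 4 h inhibited (24.35 ± 0.98), 6 h inhibited (21.4 ± 1.76), 6 h DMSO (16.3 ± 2.90), cycling (12.8 ± 0.911), 4 h DMSO (8.76 ± 1.61) and arrested (8.20 ± 1.94) (SD, n = 3 each, 2 for 6 h inhibited), where 6 h DMSO overlapped cycling cells and 4 h DMSO overlapped arrested cells. The processed copies WEE1P1 and WEE1P2 had 1 and 0 counts in all libraries together and the oocyte kinase gene WEE2 had 16, against 513 for WEE1.

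**Figure D1:**
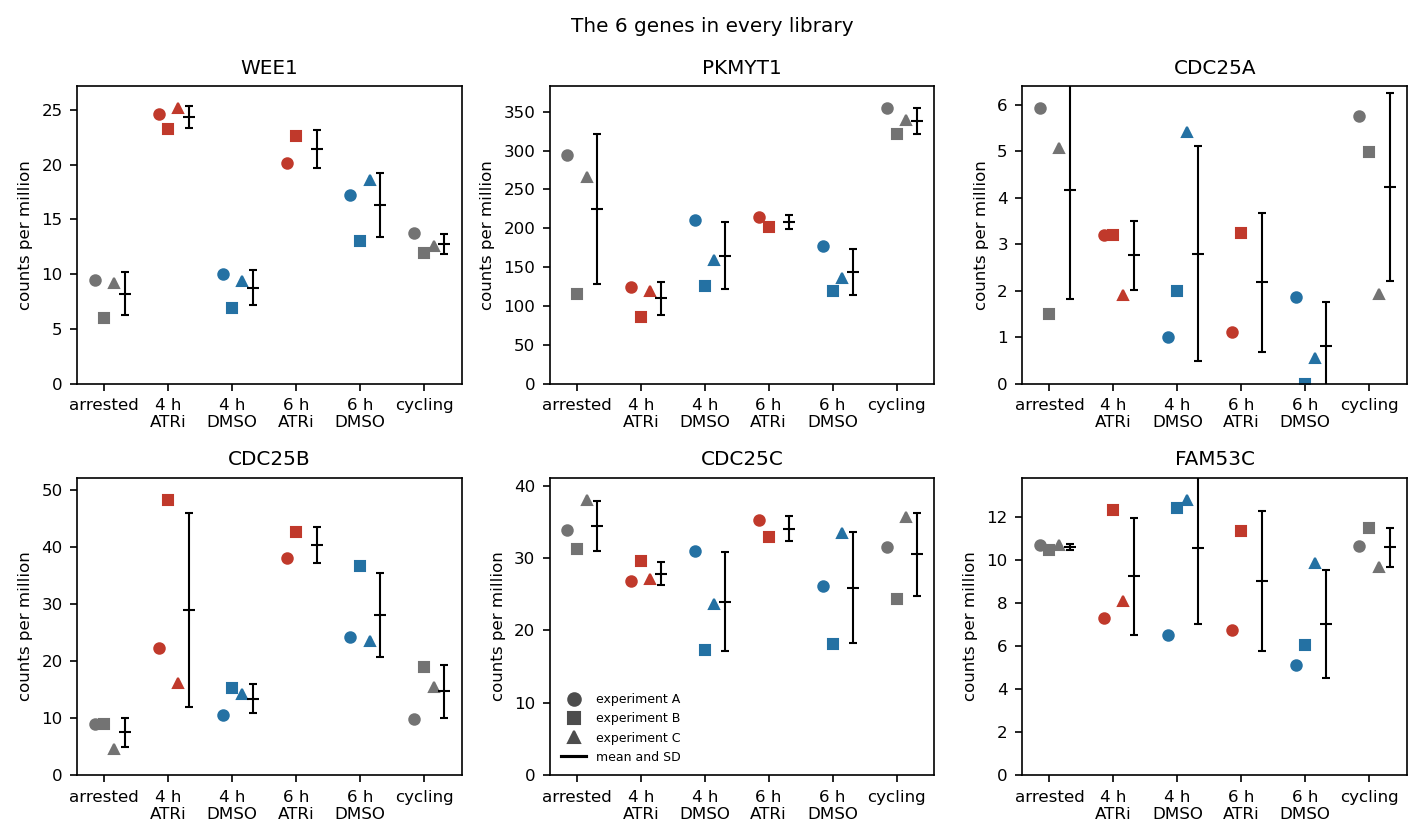
CPM (scaled counts, vertical axis, from 0) of the 6 genes in each library, by condition; symbols are experiments A, B and C, colours are ATR inhibitor (red), DMSO (blue) and neither (grey), and the bar is the mean with 1 SD, cut at 0 for CDC25A. WEE1 sits at 23.3 to 25.2 in 4 h inhibited libraries and at 6.94 to 9.98 in 4 h DMSO libraries, and PKMYT1 sits highest in cycling libraries, at 320.8 to 354.7.

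PKMYT1 counts were highest in cycling cells and went the other way from WEE1 at 4 h, without passing the test there. The 4 h inhibited libraries had 272, 187 and 252 counts (124, 85.3 and 119.6 CPM), against 421, 253 and 322 counts (210.1, 125.3 and 158.5 CPM) in the DMSO libraries. Every inhibited library lay below every DMSO library, and within experiments A, B and C the log2 difference was -0.76, -0.55 and -0.41. The edgeR log2 fold change was -0.59 ± 0.28, with an unadjusted p of 0.048 and an adjusted p of 0.878 (0.0202 to 0.9996 over the alternatives); it was called only in the fit of experiments A and C alone, at -0.58 with an adjusted p of 0.0202.

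At 6 h the sign was the opposite. PKMYT1 had 382 and 373 counts (213.9 and 201.0 CPM) in the inhibited libraries A and B, against 379, 238 and 247 counts (176.6, 119.5 and 135.3 CPM) in DMSO libraries, with no overlap. The log2 fold change was 0.53 ± 0.30 (edgeR adjusted p = 0.9999), and the response at 6 h minus that at 4 h was 1.11 ± 0.41 (unadjusted p = 0.0143, adjusted p = 0.9999 in edgeR). With the experiment as a block the edgeR adjusted p of this difference was 0.223. Between the inhibited groups, 6 h over 4 h gave 0.92 ± 0.30, with an edgeR adjusted p of 0.51 without the block and 0.0122 with it. Over the alternatives that keep 2 libraries in the 6 h inhibited group it ran from 0.0122 to 0.924. Without experiment B that group holds 1 library, so only effect sizes are given. They were 1.04 for the difference of responses and 0.81 for 6 h over 4 h inhibited cells.

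**Figure D2:**
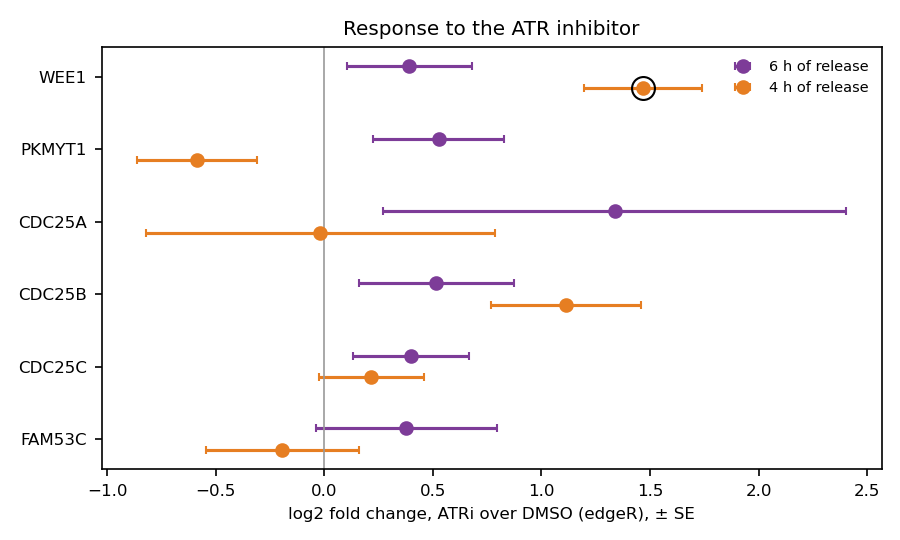
Log2 fold change of ATR-inhibited over DMSO cells (horizontal axis, edgeR) with its SE for the 6 genes, at 6 h (purple, upper) and 4 h (orange, lower) of release; the ring marks the value with an adjusted p under 0.05. WEE1 at 4 h, at 1.47, is the ringed value, and PKMYT1 is at -0.59 at 4 h and 0.53 at 6 h.

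The PKMYT1 row was lower in G2 than in cycling cells. Arrested cells had 495, 231 and 523 counts (293.7, 114.8 and 265.7 CPM), with experiment B far below the other experiments, and cycling cells had 800, 644 and 703 counts (354.7, 320.8 and 339.5 CPM). The 6 h DMSO libraries all lay below the cycling ones, with a log2 fold change of -1.23 ± 0.27 (edgeR adjusted p = 0.0365) and -1.42 to -1.005 within experiments. The call held in 14 of 25 alternatives (adjusted p 3.72e-11 to 0.181). It was lost on leaving out any of 11 single libraries, which were A and C of 4 h inhibited, A and B of 6 h inhibited, C of 4 h DMSO, all 3 of 6 h DMSO and all 3 of cycling cells. For arrested against cycling cells the value was -0.59 ± 0.27 (edgeR adjusted p = 0.475 without and 0.0196 with the block; 0.0196 to 0.782 over the alternatives), and for 6 h DMSO against arrested cells -0.64 ± 0.27 (0.334 without and 0.0336 with the block; 4.06e-06 to 0.754 over the alternatives). The comparison of 6 h DMSO with arrested cells was also called on leaving out arrested library B, at an adjusted p of 0.00798.

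The PKMYT1 row can hold reads of other genes. PKMYT1 is on the minus strand of chromosome 16, and 1233 of its 5034 exon bases (24.5%) lie opposite exons of PAQR4, a membrane receptor of the progestin and adipoQ family, and 360 (7.15%) opposite exons of KREMEN2, a Dickkopf receptor of Wnt signalling. PAQR4 had 123.1, 71.2 and 96.8 CPM in 4 h inhibited libraries, against 130.8, 107 and 119.6 CPM in 4 h DMSO libraries, and its log2 fold change was -0.30 ± 0.18 at 4 h and 0.01 ± 0.20 at 6 h (edgeR adjusted p of 0.9998 and 0.9999). KREMEN2 changed by -0.48 ± 0.29 at 4 h and -0.24 ± 0.35 at 6 h (edgeR adjusted p of 0.9998 and 0.9999). At 4 h both partner rows were lower with inhibitor within each experiment, as the PKMYT1 row was. The log2 differences were -0.585 to -0.088 for PAQR4 and -0.693 to -0.216 for KREMEN2. In 6 h DMSO against cycling cells PAQR4 changed by -0.26 ± 0.18 (edgeR adjusted p = 0.692) and KREMEN2 by -0.52 ± 0.29 (0.5885). With the 3 rows summed, 6 h DMSO against cycling cells gave -0.88 ± 0.21 (edgeR adjusted p = 0.0359) and 4 h inhibited against DMSO cells gave -0.46 ± 0.21 (adjusted p = 0.825). How many of the PKMYT1 counts come from each strand cannot be told apart in these counts. Where reads lie as they do for VIM and FTH1, most PKMYT1 reads would be outside this row. Its values therefore describe the row and not the PKMYT1 transcript alone.

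**Figure D3:**
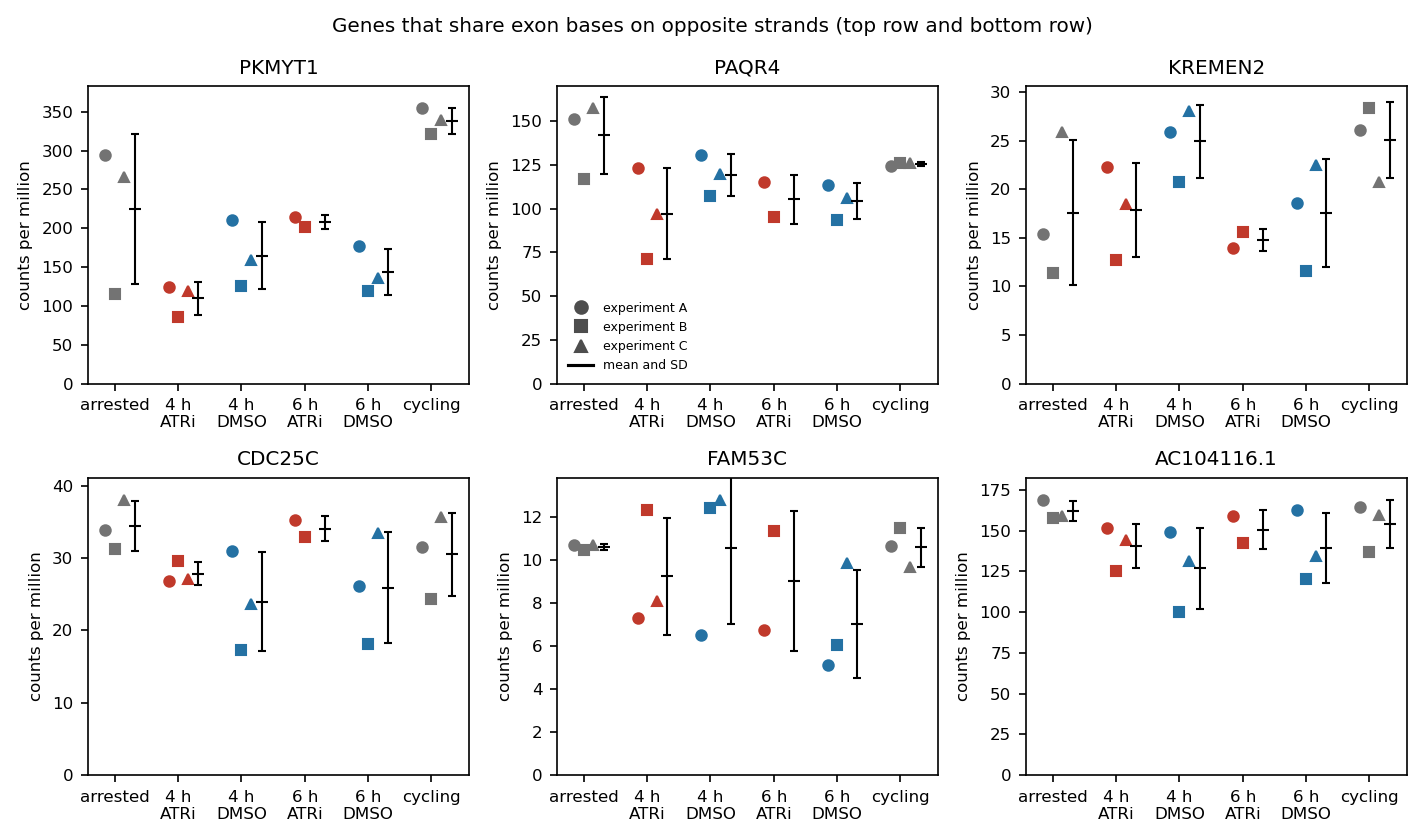
CPM (scaled counts, vertical axes, each from 0) in each library of PKMYT1, PAQR4 and KREMEN2 (top) and of CDC25C, FAM53C and AC104116.1 (bottom), which share exon bases on opposite strands; symbols, colours and bars as in the plot of the 6 genes. PKMYT1 runs from 85.3 to 354.7 over the libraries and PAQR4 from 71.2 to 157.5.

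CDC25B was the phosphatase gene that was higher in G2 than in arrest. It had 52, 73 and 43 counts (24.2, 36.7 and 23.6 CPM) in the 6 h DMSO libraries, against 15, 18 and 9 counts (8.90, 8.95 and 4.57 CPM) in the arrested libraries. No libraries overlapped, and the log2 fold change was 1.91 ± 0.38 (edgeR adjusted p = 0.00467), with 1.41 to 2.31 within experiments. The call held in 24 of 25 alternatives (adjusted p 8.5e-08 to 0.0503) and was lost without arrested library C, at 0.0503.

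Cycling cells and 4 h DMSO cells lay between these levels of CDC25B. Cycling cells had 22, 38 and 32 counts (9.75, 18.9 and 15.5 CPM), and 4 h DMSO cells had 21, 31 and 29 counts (10.5, 15.4 and 14.3 CPM), so these groups overlapped. The edgeR log2 fold change of 6 h over 4 h DMSO cells was 1.07 ± 0.35 (adjusted p = 0.528 without and 0.0119 with the experiment block; 0.0119 to 0.956 over the alternatives), and that of 4 h DMSO over arrested cells was 0.84 ± 0.40 (adjusted p = 0.504). Against cycling cells, 6 h DMSO cells differed by 0.94 ± 0.34 (0.25 without and 0.00974 with the block; 0.00974 to 0.628 over the alternatives). Arrested cells differed from cycling cells by -0.97 ± 0.40 (0.383 without and 0.0417 with the block; 0.0417 to 0.731 over the alternatives).

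Under ATR inhibition CDC25B varied between experiments. At 4 h it had 49, 106 and 34 counts (22.3, 48.4 and 16.1 CPM) in inhibited libraries, against 21, 31 and 29 counts (10.5, 15.4 and 14.3 CPM) in DMSO libraries. Each inhibited library lay above each DMSO library, but library B was far above the others and library C only slightly above its own DMSO library, with within-experiment differences of 1.07, 1.64 and 0.17. The edgeR log2 fold change was 1.11 ± 0.34, with an adjusted p of 0.364 without and 0.00828 with the experiment as a block (0.00828 to 0.996 over the alternatives), and without experiment B it was 0.64 ± 0.35 (adjusted p = 0.652). At 6 h, 68 and 79 counts (38.1 and 42.6 CPM) in inhibited libraries compared with 52, 73 and 43 counts (24.2, 36.7 and 23.6 CPM) in DMSO libraries. The groups did not overlap and the log2 fold change was 0.52 ± 0.36 (edgeR adjusted p = 0.9999).

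**Figure D4:**
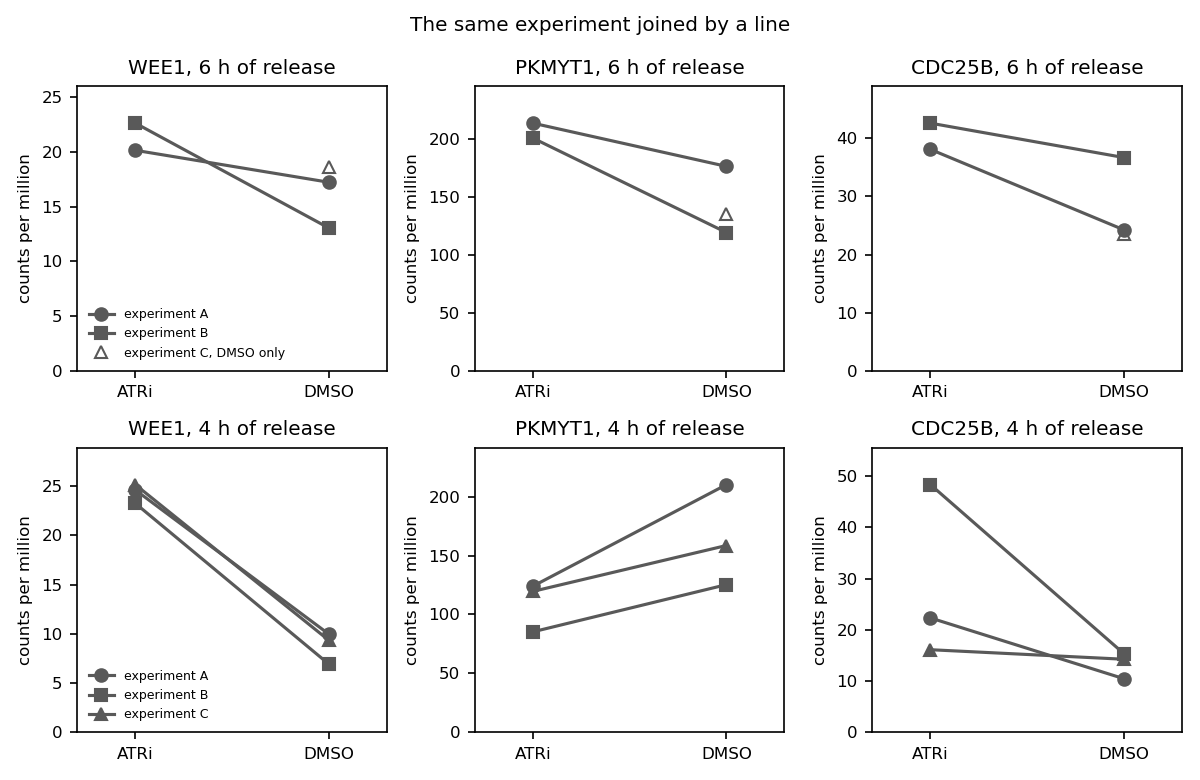
CPM (scaled counts, vertical axes, each from 0) of WEE1, PKMYT1 and CDC25B in ATR-inhibited (left) and DMSO (right) cells, at 6 h (top) and 4 h (bottom); a line joins the libraries of 1 experiment and the open triangle is the 6 h DMSO library of experiment C. WEE1 at 4 h is higher with inhibitor in 3 of 3 experiments, PKMYT1 at 4 h lower in 3 of 3, and CDC25B at 4 h higher in 3 of 3 with very unequal slopes.

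The CDC25C row differed little between conditions and passed no test. It had 59, 65 and 57 counts (26.9, 29.7 and 27.1 CPM) in 4 h inhibited libraries, against 62, 35 and 48 counts (31.0, 17.3 and 23.6 CPM) in 4 h DMSO libraries. At 6 h it had 63 and 61 counts (35.3 and 32.9 CPM) in inhibited libraries, against 56, 36 and 61 counts (26.1, 18.1 and 33.4 CPM) in DMSO libraries. The groups overlapped at both times, and the log2 fold changes were 0.22 ± 0.24 at 4 h and 0.40 ± 0.27 at 6 h (edgeR adjusted p of 0.9998 and 0.9999). Arrested cells had 57, 63 and 75 counts (33.8, 31.3 and 38.1 CPM) and cycling cells 71, 49 and 74 (31.5, 24.4 and 35.7 CPM). The value furthest from 0 in DMSO cells was that of 4 h against arrested cells, at -0.52 ± 0.24 (unadjusted p = 0.0406, adjusted p = 0.478 in edgeR). Each pair of neighbours in the order of means overlapped. Where reads lie as they do for VIM and FTH1, most CDC25C reads would be outside this row. Its values therefore describe the row and do not show whether the CDC25C transcript changed.

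CDC25A, the phosphatase that also acts at entry into S phase, had few counts. It had 7, 7 and 4 counts in 4 h inhibited libraries against 2, 4 and 11 in 4 h DMSO libraries, and 2 and 6 counts in 6 h inhibited libraries against 4, 0 and 1 in 6 h DMSO libraries. Arrested cells had 10, 3 and 10 counts and cycling cells 13, 10 and 4. The 6 h DMSO group had the lowest mean, 0.804 ± 0.958 CPM, against 4.17 ± 2.36 CPM in arrested and 4.23 ± 2.03 CPM in cycling cells (SD, n = 3 each), and its highest library, at 1.86 CPM, lay within the range of arrested cells and just below that of cycling cells. The edgeR log2 fold changes of -2.24 ± 0.92 and -2.27 ± 0.91 had unadjusted p of 0.0217 and 0.0187 and adjusted p of 0.281 and 0.318. With the inhibitor the values were -0.02 ± 0.80 at 4 h and 1.34 ± 1.07 at 6 h, whose SE span most of the range, so a response of CDC25A was not detectable with these counts. Whether depth or the strand of the counting keeps its counts low was not tested.

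FAM53C, whose protein binds the kinase DYRK1A, showed no difference that passed. It had 16, 27 and 17 counts (7.30, 12.3 and 8.07 CPM) in 4 h inhibited libraries, against 13, 25 and 26 counts (6.49, 12.4 and 12.8 CPM) in 4 h DMSO libraries, and 12 and 21 counts in 6 h inhibited libraries, against 11, 12 and 18 in 6 h DMSO libraries. The groups overlapped at both times, with edgeR log2 fold changes of -0.19 ± 0.35 and 0.38 ± 0.42 (adjusted p of 0.9998 and 0.9999). Arrested cells (18, 21 and 21 counts) and cycling cells (24, 23 and 20 counts) lay at 10.6 ± 0.136 and 10.6 ± 0.899 CPM.

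FAM53C and CDC25C run in opposite directions on chromosome 5 and share 293 exon bases, which is 4.16% of the exon bases of FAM53C and 8.78% of those of CDC25C. AC104116.1 is a feature of 411 exon bases on the CDC25C strand that lies wholly opposite FAM53C exons. Its row had a mean of 145 CPM over all libraries, against 9.53 CPM for the FAM53C row. Given the pattern of VIM and FTH1, reads of FAM53C transcripts can lie on the AC104116.1 row. AC104116.1 had 151.4, 125.4 and 144.3 CPM in 4 h inhibited libraries, against 149.2, 100.1 and 131.4 CPM in 4 h DMSO libraries, with a log2 fold change of 0.15 ± 0.16 (edgeR adjusted p = 0.9998). CDC25C and FAM53C summed gave 0.10 ± 0.21 for 4 h inhibited against DMSO cells, and FAM53C summed with CDC25C and AC104116.1 gave 0.14 ± 0.16 (edgeR adjusted p = 0.9999 for each). The share of reads in these rows that comes from each strand was not measured.

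Counted by comparison, edgeR called 1 of the 6 genes (WEE1, higher) in 4 h inhibited against DMSO cells, where 0.311% of the 13510 features were called. In 6 h inhibited against DMSO cells it called 0 of 6 beside 0.0074% of features, with 0 of 6 at an unadjusted p under 0.05 in either edgeR or DESeq2 and no calls by DESeq2, which gave 5 of the 6 no adjusted p. For the difference between the responses it called 0 of 6 and 0.0% of features, with 2 of 6 (WEE1 and PKMYT1) under an unadjusted p of 0.05 in edgeR, 2 in DESeq2, and 0 calls by DESeq2. Over all 13510 features, 401 had an unadjusted p under 0.05 for this difference in edgeR and 254 in DESeq2, which also called 0. With the experiment as a block the counts were 2 (WEE1 and CDC25B) beside 1.75%, 0 beside 0.533% and 0 beside 0.0444%.

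For DMSO cells without inhibitor, edgeR called 0 of 6 in 4 h against arrested cells (0.74% of features called; 2 of 6 at an unadjusted p under 0.05, 0 in DESeq2, and 0 DESeq2 calls). It called 1 of 6 (CDC25B) in 6 h against arrested cells, where 2.32% of features were called. In 6 h against 4 h DMSO cells it called 0 of 6 (0.0814% of features; 2 of 6 at an unadjusted p under 0.05 in each tool, 0 DESeq2 calls). It called 1 of 6 (PKMYT1, lower) in 6 h DMSO against cycling cells, beside 1.04%. Arrested against cycling cells gave 0 of 6 beside 1.03% (3 at an unadjusted p under 0.05 in edgeR and 2 in DESeq2, 0 DESeq2 calls), and 6 h against 4 h inhibited cells gave 0 of 6 beside 0.0296% (1 of 6 in each tool, 0 DESeq2 calls). With the block these counts were 0 beside 4.77%, 3 (WEE1, PKMYT1 and CDC25B) beside 7.71%, 1 (CDC25B) beside 1.04%, 2 (PKMYT1 and CDC25B) beside 6.29%, 2 (PKMYT1 and CDC25B) beside 5.64%, and 1 (PKMYT1) beside 1.24%. These comparisons share groups, so their values are not independent of each other.

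Per kilobase of annotated exon, the mean level over all libraries was 4.89 CPM for CDC25B, 1.62 CPM for WEE1 and 0.695 CPM for CDC25A, the genes with no exon opposite theirs. It was 39.3 CPM for PKMYT1, 8.74 CPM for CDC25C and 1.35 CPM for FAM53C. Their rows may include opposite reads, so their levels cannot be set against those of the others. The rows of CDC25B, WEE1 and CDC25A may hold only a small part of their reads, so their levels do not rank these transcripts.

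Ratios of kinase to phosphatase counts were described per library without a test. The log2 ratio of WEE1 to CDC25B was 0.14, -1.05 and 0.63 in 4 h inhibited libraries of experiments A, B and C, against -0.07, -1.12 and -0.60 in 4 h DMSO libraries. At 6 h it was -0.91 and -0.90 in inhibited libraries, against -0.49, -1.47 and -0.33 in DMSO libraries. These groups overlapped at both times, and experiment B had the lowest ratio in each group of 3 libraries. Within experiments, the inhibited library had the higher ratio at 4 h in A, B and C, by little in B. At 6 h it had the lower ratio in A and the higher in B. The summed kinases over the summed phosphatases, a ratio led by the PKMYT1 row and so not a measure of the balance of their transcripts, averaged 1.20 ± 0.68 in 4 h inhibited and 2.08 ± 0.25 in 4 h DMSO cells, 1.58 ± 0.10 in 6 h inhibited and 1.53 ± 0.32 in 6 h DMSO cells, and 2.23 ± 0.61 in arrested and 2.82 ± 0.13 in cycling cells (log2, SD, n = 3 each, 2 for 6 h inhibited). Cycling libraries, at 2.72 to 2.96, lay above all libraries of the other groups in this ratio, as they did in the PKMYT1 row.

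**Figure D5:**
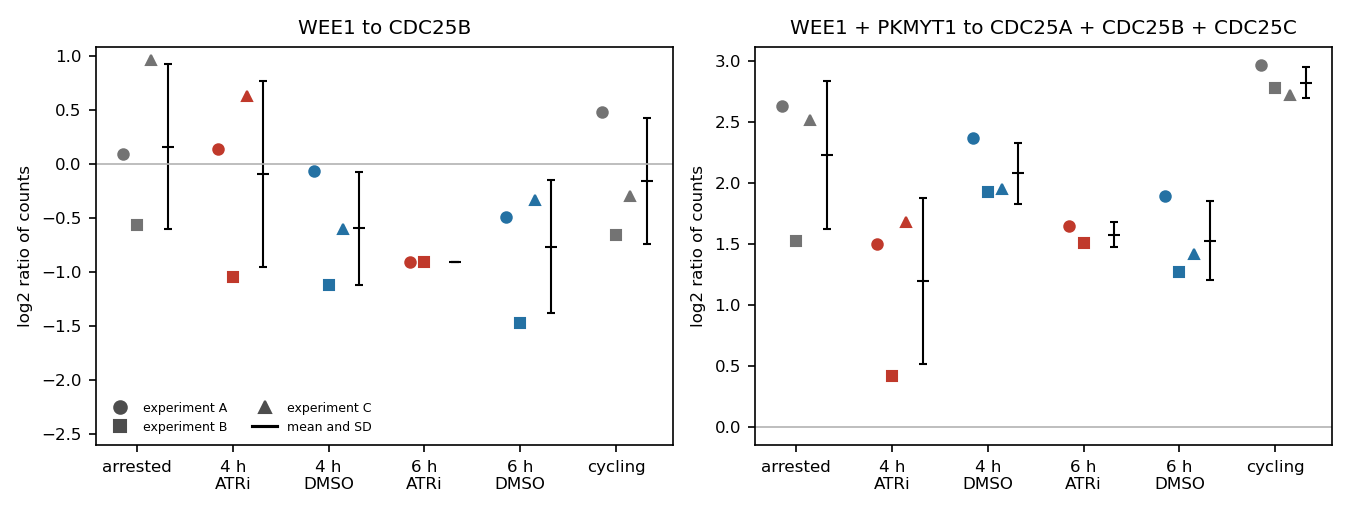
Log2 ratio of counts (vertical axes) of WEE1 to CDC25B (left) and of the summed kinases to the summed CDC25 phosphatases (right) in each library, by condition; symbols are experiments and bars are the mean with 1 SD. The summed ratio is 2.72 to 2.96 in cycling libraries, while in the left panel the 6 h inhibited libraries, at -0.91 and -0.90, lie below arrested and cycling libraries and the inhibited and DMSO groups overlap at each time.

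Genes that work with these enzymes were read from lists of named genes in the same fit. The list of CDK1, cyclins, CDK-activating kinase and inhibitors had 13 of 17 genes tested, and edgeR called 0 in 4 h inhibited against DMSO cells (3 at an unadjusted p under 0.05, 0 calls by DESeq2; median log2 change 0.21, against -0.0068 over all features). CDK1 itself had 0.72 ± 0.39 (adjusted p = 0.977) and CCNB1, its mitotic cyclin, 1.01 ± 0.38 (adjusted p = 0.625). In 6 h DMSO against arrested cells the list had 2 higher, CCNB1 at 1.73 ± 0.43 (adjusted p = 0.0253) and CCNF, the cyclin F of an SCF ubiquitin ligase, at 1.75 ± 0.29 (adjusted p = 6.85e-04), with AC106820.5 and ENSG00000285970 opposite CCNF. With the block 4 were higher and 2 lower there.

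Of the 27 tested kinases and adaptors that act on WEE1, PKMYT1 or CDC25, edgeR called 1 in 4 h inhibited against DMSO cells. It was PLK1, the kinase that marks WEE1 for destruction and activates CDC25, at 1.53 ± 0.30 (adjusted p = 0.0125), with 30.6, 38.3 and 25.6 CPM in inhibited libraries, against 10.5, 12.9 and 9.35 CPM in DMSO libraries. Exons of ERN2 and AC008870.3 lie opposite PLK1. ATR, the drug's target, had -0.01 ± 0.49 and CHEK1, the kinase it activates, -0.21 ± 0.51 (adjusted p = 0.9998 for each), and the median of the list was -0.04. In 6 h DMSO against arrested cells PLK1 (2.13 ± 0.35, adjusted p = 5.36e-04) and YWHAH, a 14-3-3 protein of the family that binds CDC25 (1.01 ± 0.27, adjusted p = 0.0446), were higher, with YWHAH-AS1 opposite the YWHAH exons. With the block 1 gene was higher and 1 lower in the inhibitor comparison, and 3 were higher and 1 lower in this one. Arrested against cycling cells had PLK1 lower (-1.94, edgeR adjusted p = 0.00279), UBE2S and CDC20 of the ubiquitin list lower (-1.30 and -1.72), and CDK2 and CDKN1A, the p21 inhibitor of CDKs, higher (1.47 and 2.57, adjusted p of 0.0448 and 0.0437). Exons of PMEL and AC025162.1 lie opposite CDK2 and those of ENSG00000285244 opposite CDKN1A. By the pattern of VIM and FTH1, CDK2 reads can lie on the PMEL row. That row changed by 0.34 ± 0.16 in arrested against cycling cells (edgeR adjusted p = 0.495 without and 0.0267 with the block). The CDK2 value therefore describes its row and not the transcript alone.

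Among 14 tested ubiquitin ligase and protease genes, 1 was higher in 4 h inhibited than in DMSO cells, UBE2S, an E2 enzyme of the anaphase-promoting complex (0.77 ± 0.16, edgeR adjusted p = 0.0284). In 6 h DMSO against arrested cells 4 were higher, UBE2S (1.25), CDC20 (1.97), CDC27 (1.36) and CDCA3 (1.02), a trigger of WEE1 degradation, and the median of the list was 0.66. AC002558.2 lies opposite CDC27 and GNB3 opposite CDCA3. With the block 2 were higher in the inhibitor comparison and 7 in this one. Of 14 phosphatase genes that oppose CDK1 and 16 transcription factors of the E2F, FOXM1, MuvB and NF-Y groups, edgeR called 0 in 4 h inhibited against DMSO cells (0 and 1 at an unadjusted p under 0.05, 0 calls by DESeq2 in each list; medians 0.04 and -0.02). In 6 h DMSO against cycling cells MYBL2, the B-MYB factor of mitotic genes, was lower (-1.20, adjusted p = 0.0232) and RBBP4, a MuvB subunit with SYNC on the other strand, higher (0.76, adjusted p = 0.019). In 6 h inhibited against DMSO cells edgeR called 0 genes of these 5 lists, with 1, 2, 3, 0 and 3 at an unadjusted p under 0.05 in the order given here. DESeq2 called 1 there and the fit with the block called UBE2S (0.94 ± 0.17 without the block, adjusted p = 0.0734; 5.42e-06 with it).

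Counts of cell cycle stage genes differed along with those of WEE1 and CDC25B. The summed level of 22 G2 and mitosis genes was 704.9 to 818.0 CPM in 4 h inhibited libraries, against 407.6 to 432.3 CPM in 4 h DMSO libraries, and 935.1 to 981.5 CPM in 6 h inhibited libraries, against 558.0 to 728.0 CPM in 6 h DMSO libraries. It was 272.9 to 336.5 CPM in arrested and 425.2 to 442.8 CPM in cycling libraries. Of these 22 genes 7 were higher in 4 h inhibited than in DMSO cells by edgeR, among them CENPF (0.95, adjusted p = 0.00402) and TPX2 (0.96, adjusted p = 0.0206), with a median of 0.95, and 12 were higher in 6 h DMSO than in arrested cells, with a median of 1.11. With the block these counts were 12 and 15. The 16 S phase genes summed to 226.7 to 255.4 CPM in 4 h inhibited libraries, against 269.3 to 336.9 CPM in 4 h DMSO libraries, and edgeR called 0 of 15 tested (3 at an unadjusted p under 0.05, 0 calls by DESeq2; median -0.38). In 6 h DMSO against arrested cells MCM3, a subunit of the replicative helicase (-1.38, adjusted p = 0.0229), and TYMS, thymidylate synthase (-0.83, adjusted p = 0.0127; exons of ENOSF1 and TYMSOS lie opposite), were lower, and 7 genes were lower with the block. The part of these differences in the WEE1, PKMYT1 and CDC25B values was not tested, and in bulk libraries more cells of a stage and more RNA per cell cannot be told apart.

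The features nearest in pattern to each gene were taken by Pearson's r of log2 CPM over the 17 libraries after removal of experiment means, among 7145 features, as a description. For WEE1 they were CIT (0.925), the citron kinase of cytokinesis, with AC002563.1 opposite, and KIF20B (0.916) and TPX2 (0.913), both of the mitotic spindle. For CDC25B they were AL136295.2 (0.973), AL139099.1 (0.958) and ENSG00000272367 (0.945), the first opposite EMC9 and the next opposite MGAT2. For PKMYT1 they were AC080112.3 (0.95), opposite RARA, PDXP-DT (0.926), opposite SH3BP1 and ENSG00000285304, and PRPF40B (0.925), opposite FAM186B and FMNL3. The highest values were lower for CDC25C (NIT2, 0.811), FAM53C (SLFNL1, 0.801, opposite SLFNL1-AS1) and CDC25A (WTAP, 0.79, opposite SOD2 and ENSG00000285441). Among the 6 genes, WEE1 and CDC25B had 0.826, and PKMYT1 and PAQR4 had 0.645. The libraries of 1 condition share their treatment, so these values hold few independent points.

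The authors' deposited table of comparisons gave WEE1 a log2 fold change of 1.20 in 4 h inhibited over DMSO cells (adjusted p = 0.00135). For CDC25B the authors' deposited table gave -1.33 in arrested over 6 h DMSO cells (adjusted p = 4.29e-04), where the direction runs the other way round from the values above. For PKMYT1 the authors' deposited table gave -1.04 in 6 h DMSO over cycling cells (adjusted p = 6.42e-04).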

How the data were processed

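RNA-seq counts per gene were analysed for 17 libraries of 6 conditions. Per the submitters' processing notes, reads were processed with TopHat, HTSeq and DESeq2 on GRCh37, with no versions given, and the authors deposited raw counts per gene and a table of comparisons with log2 fold changes and adjusted p-values, both as made by the authors. The strand setting of the counting is not given in the sources used here. The letters A, B and C in the columns were taken as the 3 independent experiments.

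Rows with a gene symbol numbered 55528 of 60252. Library totals were 1758747 to 2357561 counts. Counts were fitted in edgeR 4.0.16 (R 4.3.3, limma 3.58.1) with TMM factors, 1 mean per condition over all libraries, robust quasi-likelihood dispersion (11 residual degrees of freedom), a filter of at least 10 counts by edgeR's rule with a total of 15, and Benjamini-Hochberg adjustment over the 13510 features tested; calls are at an adjusted p under 0.05, two-sided. DESeq2 1.42.0 was an alternative, with others on scaling, filter, samples in the fit, experiment B, single libraries and summed opposite strands. The fit was tested on simulated counts. CPM use TMM-scaled library sizes, and log2 CPM a prior count of 2. Same-letter libraries of 2 conditions correlated in their deviations from group means at r = 0.081 to 0.534, and other letters at -0.465 to 0.262. As the letters mark the experiments of the design, the letter is a block in an alternative fit (9 residual degrees of freedom), and the common coefficient of variation was 0.23 without and 0.119 with it. Sequences are from RefSeq (GRCh38.p14) and GENCODE v29 (GRCh38), and exon overlaps from the latter, not from the build of the counts.

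The genes and lists were chosen with earlier results of these data known. The text names the 6 genes, features opposite their exons, list genes called in a comparison, CDK1, CCNB1, PLK1, CHEK1 and ATR, and for each of the 6 the 3 features of highest r with a mean of at least 10 CPM; of called list genes it gives examples. Experiments are treated as replicates; p-values measure the spread between these libraries.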

Additional observations from a re-analysis of the deposited data

How the results depend on the processing

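Over 54 gene and comparison values and 1333 alternatives, 1303 kept their direction and their side of the threshold, 14 lost a call, 16 gained one and 0 reversed while called; 43 changed sign, none of them called. With the replicate block, the genes called became 2 in 4 h inhibited against DMSO cells (CDC25B at 1.05), 3 in 6 h DMSO against arrest, 1 in 6 h against 4 h DMSO, 1 in 6 h against 4 h inhibited, 2 in arrest against cycling and 2 in 6 h DMSO against cycling; pairing changed no other call of these genes. Without experiment B they became 2 in 4 h inhibited against DMSO cells, 1 in 4 h DMSO against arrest and 2 in 6 h DMSO against arrest. Calls rose over all 13328 features then tested, in that order to 69 higher and 16 lower, 231 and 187, and 395 and 376. The main fit of 13510 features had 39 and 3, 56 and 44, and 171 and 143. PKMYT1 was then at -0.58 in 4 h inhibited against DMSO cells. The 6 h inhibited group then holds 1 library, assumed to vary like the other groups, so its comparisons are given by effect size only. For PKMYT1 these were 1.04 for the difference of responses and 0.81 in 6 h against 4 h inhibited cells. The cause was not tested. A minimum count of 20 gave 2 in 6 h DMSO against arrest, and no filter gave 1 in 6 h against 4 h inhibited. Leaving out single libraries gave 0 to 1 in 4 h inhibited against DMSO (WEE1 1.33 to 1.58), 0 to 2 in 6 h DMSO against arrest and 0 to 1 in 6 h DMSO against cycling. Without removal of experiment means, the nearest features kept 1 of 3 for PKMYT1 and CDC25A and 0 of 3 for CDC25B and CDC25C. CDC25A had 0 to 13 counts a library, which limits its precision; whether depth or strand keeps them low was not tested.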
